A study of Mus musculus with 9 samples.

Results

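The Hedgehog genes described here are the 10 that act around the ligand outside the receiving cell or on its surface. They are the co-receptors *Boc*, *Cdon* and *Gas1*, the ligand-binding antagonist *Hhip* and its relative *Hhipl1*, and the genes for ligand acylation and release, *Hhat*, *Disp1*, *Scube1*, *Scube2* and *Scube3*. They were chosen by gene symbol, and all 10 were found among the 27179 genes of the count table. Poly(A) RNA from whole pulverized mandibles with their teeth was sequenced from 5 wild-type (WT) mice and 4 mice labelled *FcγRIIB*-/-, which by their label lack the inhibitory low-affinity receptor for IgG and serve as a mouse model of lupus with bone loss. All mice were 6 months old. The paper describes the *FcγRIIB*-/- mice as males on a C57BL/6 background, and does not state strain and sex separately for the WT controls. The comparison asks how the mandible of the lupus model differs in its transcripts from that of the controls. The totals were 24158960 to 26787359 counts per mouse in WT and 21453880 to 28991631 counts in the libraries labelled *FcγRIIB*-/-.

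Hedgehog ligands are lipid-modified proteins that travel only short distances without help. HHAT attaches the palmitate, DISP1 exports the finished ligand, and the secreted SCUBE proteins accept it from DISP1 and keep it soluble. On the receiving cell, the ligand binds PTCH1 together with BOC, CDON or GAS1, which frees SMO to act in the primary cilium, and GLI transcription factors are then activated. HHIP binds the ligand without passing on a signal, and like *Ptch1* and *Gli1* it is a transcriptional target of the pathway. In the jaw the pathway is known for tooth development and for the mesenchymal stem cells around the incisor.

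Some features of the libraries bear on all values below. *Fcgr2b* (gene identifier 14130), the gene named by the genotype, showed no loss in the mice carrying that label. It averaged 24.0 CPM in WT (SD 8.28, n = 5) and 27.8 CPM in the labelled mice (SD 2.90, n = 4), with a log2 fold change of 0.21 (adjusted p = 0.442, edgeR's quasi-likelihood test), and it passed as higher, at 0.46, when WT replicate 2 was left out (adjusted p = 0.0131). CPM is the count scaled by the TMM-normalized library size. The deleted exons were not given in the sources used here, and groups are therefore named by their labels. Markers of several cell types differed between the groups. The summed level of 9 fibroblast and periodontal ligament markers was 22758 to 36274 CPM in WT and 10415 to 15001 CPM in the labelled mice, and 6 of the 9 genes fell. *Col3a1* and *Postn* made up most of these sums, and the median log2 fold change of the 9 genes was -0.43. All 12 myeloid marrow markers fell, from a sum of 1199 to 3641 CPM to one of 146 to 439 CPM, and all 7 erythroid markers tested fell. Of 11 stratified epithelium markers tested, 7 fell and 1 rose, with sums of 5772 to 20530 CPM in WT and 4528 to 5729 CPM in the labelled mice. Tooth markers went the other way, with 5 of 8 genes higher and a sum of 12172 to 31390 CPM in WT against 34465 to 57617 CPM in the labelled mice. Osteoblast markers were present throughout, with 10 of them summing to 45731 to 66434 CPM in WT and 42837 to 52974 CPM in the labelled mice. Type I collagen genes made up most of these sums. Of the 10, 3 were lower, *Col1a2*, *Ibsp* and *Sp7* (adjusted p = 0.0191, 0.0426 and 0.016, edgeR's quasi-likelihood test). None was called higher in that test, but the log2 fold change was positive for 4 of the 10. The largest of these was that of *Bglap*, at 0.60 (adjusted p = 0.0702, same test), which passed as higher with DESeq2 (adjusted p = 0.0223). WT replicate 5 stood apart among the controls, with the highest fibroblast, epithelial, myeloid and osteocyte sums and the lowest tooth sum. In bulk tissue, fewer cells of a type and less RNA per cell cannot be told apart.

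No gene among the 10 rose and 5 fell, namely all 3 co-receptors, *Hhipl1* and *Scube2*. The other 5 did not pass the test. The count of genes that rose was also 0 with DESeq2 and 0 at an unadjusted p under 0.05 in edgeR. Over all 16329 genes tested, 19.3% were called lower and 14.0% higher by edgeR's quasi-likelihood test, where a call needs an adjusted p below 0.05. The log2 fold change was negative for 9 of the 10 genes, and its median over them was -0.34, while the median over all tested genes was 0.0055. The groups did not overlap for 4 of the 10, *Boc*, *Cdon*, *Hhipl1* and *Scube2*, and 29.6% of all tested genes had groups without overlap. *Boc*, *Gas1*, *Hhip* and *Hhipl1* are among the Hedgehog genes that the study picked out in these same libraries, so their direction is not independent evidence. The study also measured candidate genes by qPCR, and its primer list holds *Boc*, *Gas1* and *Hhip*. Those measurements are not part of the counts used here. The number of calls varied with the mice used, and 3 genes passed without replicate 3 or without replicate 4 of the labelled mice, and 6 passed without replicate 1 of the labelled mice. Over all tested genes there were 5433 calls with all mice and 4529 to 5055 when a mouse was left out.

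**Figure D1:**
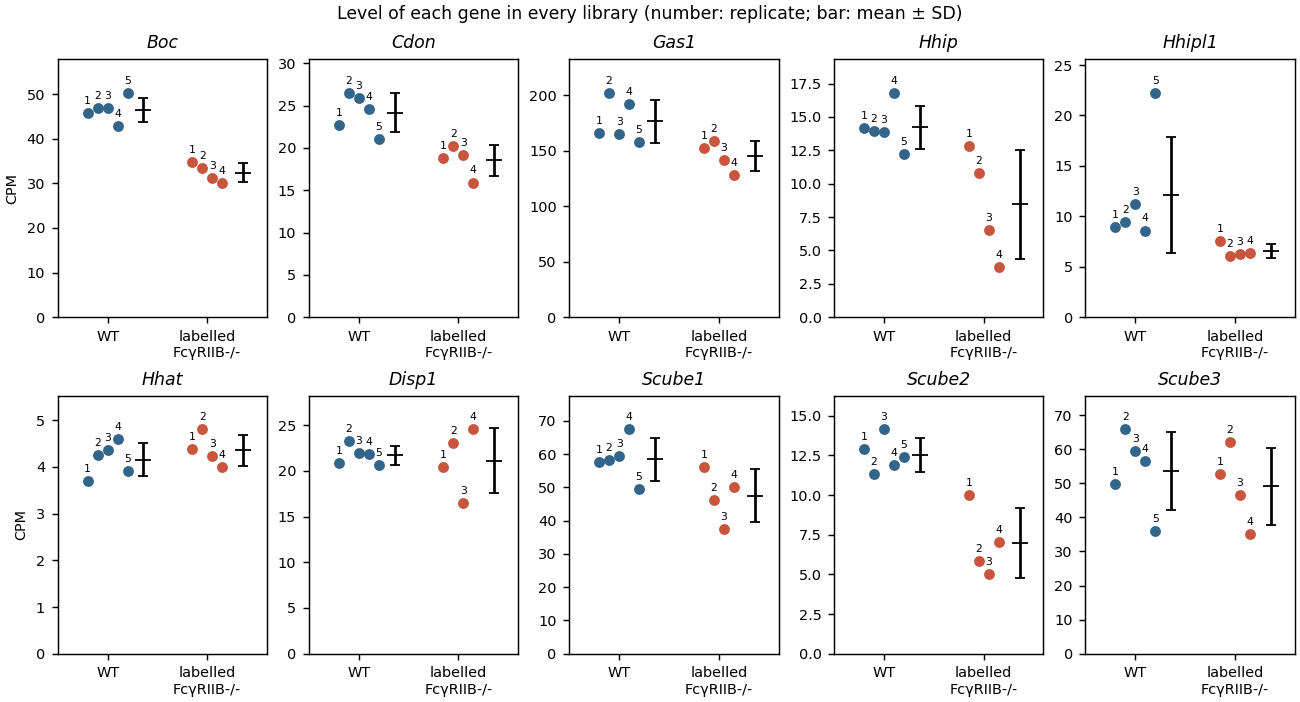
Level of each of the 10 genes in CPM (y axes, each from 0) in the 5 WT libraries and the 4 libraries labelled FcγRIIB-/-; the number beside a point is the replicate, and the bars give the mean ± SD. The groups are separate for Boc, Cdon, Hhipl1 and Scube2, WT replicate 5 stands above the other WT mice for Hhipl1, and the labelled mice spread widely for Hhip.

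Among the co-receptors, *Boc* had the clearest difference. BOC is a transmembrane protein of the immunoglobulin superfamily that binds the ligand through its fibronectin type III repeats. The gene (117606) lies on chromosome 16 of GRCm38 from 44485045 to 44558870. Its level was 45.8, 47.0, 46.8, 42.7 and 50.3 CPM in WT replicates 1 to 5, and 34.7, 33.5, 31.1 and 30.1 CPM in replicates 1 to 4 of the labelled mice. The lowest WT mouse was well above the highest labelled mouse, and the spread within each group was small. *Boc* fell to 0.696 of the WT level (95% interval 0.626 to 0.773), a log2 fold change of -0.52 with a standard error of 0.069 (adjusted p = 0.000699, edgeR's quasi-likelihood test). The two-sided exact permutation test over all assignments of the 9 mice gave p = 0.00794, the smallest it can give.

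*Cdon* (57810), the close relative of *Boc* with a similar arrangement of immunoglobulin and fibronectin domains, lies on chromosome 9 from 35421528 to 35507652. It had 22.8, 26.5, 26.0, 24.6 and 21.003 CPM in WT and 18.8, 20.2, 19.1 and 15.9 CPM in the labelled mice. The groups came close, since WT replicate 5 was only slightly above replicate 2 of the labelled mice. *Cdon* fell to 0.767 of the WT level (95% interval 0.662 to 0.888), with a log2 fold change of -0.38, a standard error of 0.096 and an adjusted p of 0.0124 in edgeR's quasi-likelihood test (exact permutation p = 0.0159).

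*Gas1* (14451) encodes a co-receptor of another structure, held to the membrane by a lipid anchor. It lies on the minus strand of chromosome 13 from 60174405 to 60177535 and spans 3131 bases. Its levels were 166, 202, 165, 193 and 158 CPM in WT and 152, 159, 142 and 128 CPM in the labelled mice. Here the groups overlapped, because replicate 2 of the labelled mice lay above WT replicate 5. *Gas1* fell with a log2 fold change of -0.28 and a standard error of 0.097, just past the threshold (adjusted p = 0.0456, edgeR's quasi-likelihood test). Leaving out any of WT replicates 1 to 4, or replicate 1, 3 or 4 of the labelled mice, ended the call, with adjusted p up to 0.123. A long non-coding gene on the opposite strand shares 589 exonic bases with *Gas1*. It has no row in the count table, and the strand setting of the counting is not given in the sources used here.

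The summed level of the 3 co-receptors was 229 to 276 CPM in WT and 174 to 213 CPM in the labelled mice, without overlap. *Gas1* made up most of that sum. The within-library log2 ratio of *Boc* to *Gas1* averaged -1.92 in WT (SD 0.22, n = 5) and -2.16 in the labelled mice (SD 0.071, n = 4), and the difference of -0.24 did not pass (two-sided exact permutation test, p = 0.0952, adjusted over the 6 ratios computed p = 0.190). The ratio of *Boc* to *Cdon* differed by -0.14 (exact permutation p = 0.246, adjusted p = 0.369). The drop of the fibroblast and periodontal ligament markers runs in the same direction as that of the co-receptors. Its part in the result was not tested.

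The widest spread was that of *Hhip* and its relative *Hhipl1*. *Hhip* (15245; chromosome 8, 79965850 to 80058060) encodes the decoy that binds all Hedgehog ligands. It had 14.2, 13.9, 13.9, 16.8 and 12.3 CPM in WT. Replicates 1 to 4 of the labelled mice had 12.8, 10.8, 6.52 and 3.75 CPM. The WT mice were close together, whereas the labelled mice ran from a WT-like level to 74 counts in replicate 4. Its log2 fold change of -0.74 had a standard error of 0.28 and did not pass (adjusted p = 0.0668, edgeR's quasi-likelihood test), with a 95% interval of 0.389 to 0.924 of the WT level for the gene taken alone. DESeq2 gave an adjusted p of 0.0326 for *Hhip*, and edgeR gave 0.0246 without replicate 1 of the labelled mice.

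*Hhipl1* (214305; chromosome 12, 108305968 to 108328300) is a relative of *Hhip* that encodes a secreted protein. Its levels were 8.98, 9.47, 11.3, 8.59 and 22.3 CPM in WT and 7.57, 6.05, 6.27 and 6.39 CPM in the labelled mice. WT replicate 5 was far above the other controls, yet the other 4 also lay above all labelled mice. *Hhipl1* fell with a log2 fold change of -0.88, a standard error of 0.28 and an adjusted p of 0.0318 (edgeR's quasi-likelihood test). Without WT replicate 5 the log2 fold change was -0.52 with an adjusted p of 0.0139. Leaving out replicate 2, 3 or 4 of the labelled mice ended the call, with adjusted p of 0.0741, 0.0739 and 0.0703. WT replicate 5 also had the highest fibroblast, epithelial and myeloid marker sums of the controls. Its osteocyte marker sum was likewise the highest, at 1310 CPM against 682 to 1047 CPM in the other WT mice. *Sost* was at 352 CPM (10.4 to 22.7 CPM in the others) and *Mepe* at 245 CPM (7.38 to 13.9 CPM in the others). *Dmp1* was only slightly above the others, at 367 CPM against 199 to 334 CPM. Of the 5 osteocyte markers, *Phex* went the other way, at 343 CPM against 448 to 685 CPM in the others. The part of the cells marked by these lists in the *Hhipl1* level was not tested. The log2 ratio of *Hhip* to *Hhipl1* differed by -0.10 between the groups (two-sided exact permutation test, p = 0.802).

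Ligand acylation and export showed no detectable difference. *Hhat* (226861), the palmitoyltransferase, had the lowest WT mean of the 10 genes per length. It had 3.70, 4.25, 4.36, 4.59 and 3.90 CPM in WT and 4.38, 4.81, 4.24 and 4.004 CPM in the labelled mice, from 79 to 125 counts per library. Its log2 fold change was 0.07 with a 95% interval of -0.22 to 0.35 (adjusted p = 0.718). *Disp1* (68897), the exporter, had 20.8, 23.3, 21.9, 21.8 and 20.6 CPM in WT and 20.4, 23.0, 16.5 and 24.5 CPM in the labelled mice. The WT values lay inside the range of the labelled mice, and the log2 fold change was -0.04 with a 95% interval of -0.28 to 0.20 (adjusted p = 0.806, edgeR's quasi-likelihood test). Both genes lie on chromosome 1 with *Fcgr2b*, *Disp1* at 12.1 Mb and *Hhat* at 21.5 Mb from it.

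Of the SCUBE genes, which encode secreted proteins with a signal peptide, CUB domain and EGF-like repeats, only *Scube2* passed the test. *Scube2* (56788) lies on chromosome 7 from 109798690 to 109865679. It had 12.9, 11.3, 14.2, 11.9 and 12.4 CPM in WT and 10.02, 5.82, 5.04 and 7.04 CPM in the labelled mice. Replicate 1 of the labelled mice was nearest to WT, and the groups did not overlap. *Scube2* fell to 0.559 of the WT level (95% interval 0.423 to 0.738), with a log2 fold change of -0.84, a standard error of 0.18 and an adjusted p of 0.0064 (edgeR's quasi-likelihood test, exact permutation p = 0.00794). It kept its call in all 9 fits that left out a mouse, with adjusted p between 0.00143 and 0.0199.

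*Scube1* (64706; chromosome 15, 83602583 to 83725051) had 57.7, 58.2, 59.5, 67.5 and 49.4 CPM in WT and 56.2, 46.4, 37.4 and 50.2 CPM in the labelled mice. Replicate 1 of the labelled mice was among the controls and replicate 3 was far below them. Its log2 fold change of -0.30 had a 95% interval of -0.56 to -0.035 for the gene alone and did not pass over all genes (adjusted p = 0.0769, edgeR's quasi-likelihood test). Without replicate 1 of the labelled mice *Scube1* passed (adjusted p = 0.0384). *Scube3* (268935; chromosome 17, 28142100 to 28174851) had 49.9, 65.8, 59.4, 56.6 and 36.03 CPM in WT and 52.8, 62.0, 46.5 and 35.1 CPM in the labelled mice. The 2 ranges nearly coincided, and the log2 fold change of -0.12 had a 95% interval of -0.53 to 0.29 (adjusted p = 0.638).

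That *Scube2* passed and the others did not does not by itself show a difference between them, so ratios within each library were compared. The log2 ratio of *Scube1* to *Scube2* averaged 2.21 in WT (SD 0.21, n = 5) and 2.79 in the labelled mice (SD 0.22, n = 4), a difference of 0.58 (two-sided exact permutation test, p = 0.0238). The ratio of *Scube2* to *Scube3* averaged -2.06 in WT (SD 0.37, n = 5) and -2.82 in the labelled mice (SD 0.55, n = 4), a difference of -0.76 (exact permutation p = 0.0476). After adjustment over the 6 ratios both exact permutation tests had p = 0.143 and did not pass. The ratio of *Scube1* to *Scube3* differed by -0.18 (exact permutation p = 0.429). The ranges of the groups overlapped in all 6 ratios.

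The stretches before the RefSeq transcription starts of *Scube2* and *Scube1* are shown because these related genes differed in whether they passed the test. That of *Gas1* is shown because a gene on the other strand shares exonic bases with *Gas1*. They are RefSeq sequences of GRCm38.p6, written 5′ to 3′ on the minus strand of the genome, on which all 3 genes lie, with each CG dinucleotide in capitals.
Scube2 (chr7:109865680-109865929): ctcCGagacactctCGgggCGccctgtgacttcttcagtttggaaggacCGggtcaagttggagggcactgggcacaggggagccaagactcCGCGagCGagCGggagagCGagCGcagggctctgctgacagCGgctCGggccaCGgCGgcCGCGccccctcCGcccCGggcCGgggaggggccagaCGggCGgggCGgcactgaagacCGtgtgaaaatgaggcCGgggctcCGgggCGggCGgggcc
Scube1 (chr15:83725052-83725289): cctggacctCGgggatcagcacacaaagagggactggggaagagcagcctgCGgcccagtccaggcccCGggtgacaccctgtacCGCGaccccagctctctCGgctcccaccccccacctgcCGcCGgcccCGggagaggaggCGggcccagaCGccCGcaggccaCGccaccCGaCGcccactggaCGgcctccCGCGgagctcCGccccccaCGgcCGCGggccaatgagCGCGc
Gas1 (chr13:60177536-60177785): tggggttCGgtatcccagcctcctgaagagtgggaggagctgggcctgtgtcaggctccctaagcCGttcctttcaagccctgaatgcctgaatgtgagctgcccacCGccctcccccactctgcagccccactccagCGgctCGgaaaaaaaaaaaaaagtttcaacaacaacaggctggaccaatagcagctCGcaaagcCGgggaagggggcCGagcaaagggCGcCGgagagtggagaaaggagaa
*Scube2* has 27 CG dinucleotides in 250 bases and *Scube1* has 24 in 238 bases, and their 300-base windows, which reach into the transcript, hold 36 and 32, against a median of 7 over all 32851 windows. *Gas1* has 10 in 250 bases, and all 250 of these bases fall in exons that GENCODE annotates. Whether those exons belong to *Gas1* itself or to the opposite-strand gene was not recorded. Windows of 300 bases around annotated transcript starts were found for 9 of the 10 genes, and *Boc* had none. Not all of them reach the sequence before the gene: the *Cdon* window begins at 35451826 while the gene starts at 35421528, and the *Hhipl1* window and 1 of the 2 *Disp1* windows also lie wholly inside their genes. The Gli consensus GACCACCCA was in 0 of the 10 windows of these 9 genes on either strand, and 0.289% of all 27025 genes with a window hold it. A match in a window would be a description of letters only, and its absence says nothing of binding elsewhere.

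**Figure D2:**
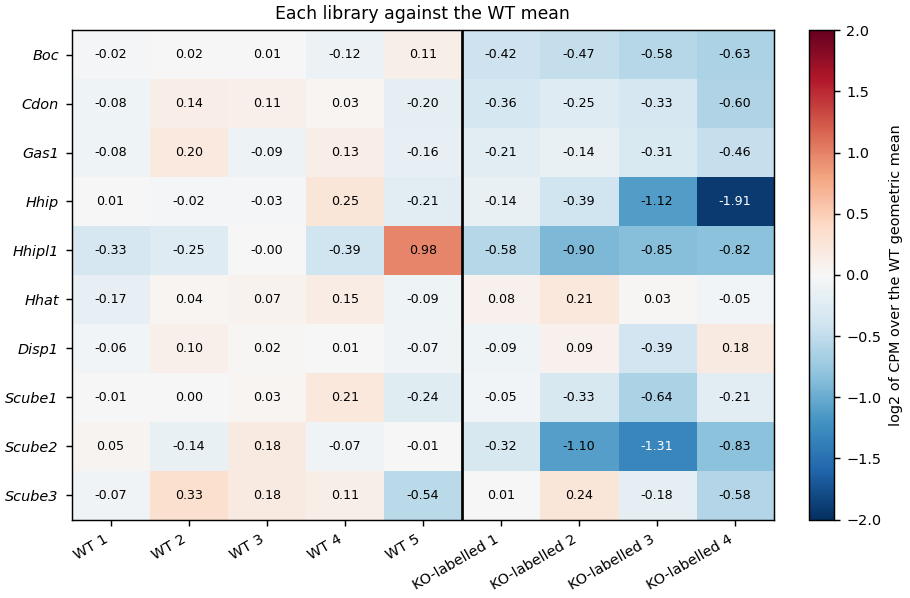
The log2 of each library's CPM over the geometric mean of the WT libraries (colour and printed value) for the 10 genes (rows) in 5 WT and 4 labelled libraries (columns). Boc, Cdon, Gas1, Hhip, Hhipl1, Scube1 and Scube2 are below the WT mean in all 4 labelled libraries. Hhip runs from -0.14 to -1.91 and Scube2 from -0.32 to -1.31 in them, and Hhat and Disp1 stay within 0.39 of the WT mean.

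Libraries differed from each other in a partly shared way. WT replicate 5 had the lowest WT level for 6 of the 10 genes and the highest for *Boc* and *Hhipl1*. Replicate 4 of the labelled mice had the lowest level of its group for 6 of the 10, and replicates 1 and 2 together held the highest level for 9 of them. *Scube3*, *Cdon*, *Gas1* and *Hhip* were each lowest in those same mice, WT replicate 5 and replicate 4 of the labelled group. *Hhip* was the gene that most separated the labelled mice from each other, with replicates 3 and 4 at -1.12 and -1.91 on the log2 scale relative to WT.

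Levels of different genes were compared per kilobase of the longest annotated transcript. In WT, *Gas1* was highest at 59.7 ± 6.60 CPM per kilobase (SD, n = 5), far above *Boc* at 10.4, *Scube1* at 10.01 and *Scube3* at 7.79. The ranges of *Boc* and *Scube1*, and those of *Scube1* and *Scube3*, overlapped. *Disp1* followed at 4.35, below every WT value of *Scube3* and above every one of *Scube2*. *Scube2* at 3.51, *Cdon* at 3.22, *Hhipl1* at 2.34, *Hhip* at 1.57 and *Hhat* at 1.28 formed the lower end, where each gene's range overlapped that of the next. In the labelled mice the order of the means changed at 3 places. *Scube1* at 8.14 stood above *Boc* at 7.27, *Cdon* at 2.47 above *Scube2* at 1.96, and *Hhat* at 1.34 above *Hhip* and *Hhipl1*, with overlapping ranges in each case.

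**Figure D3:**
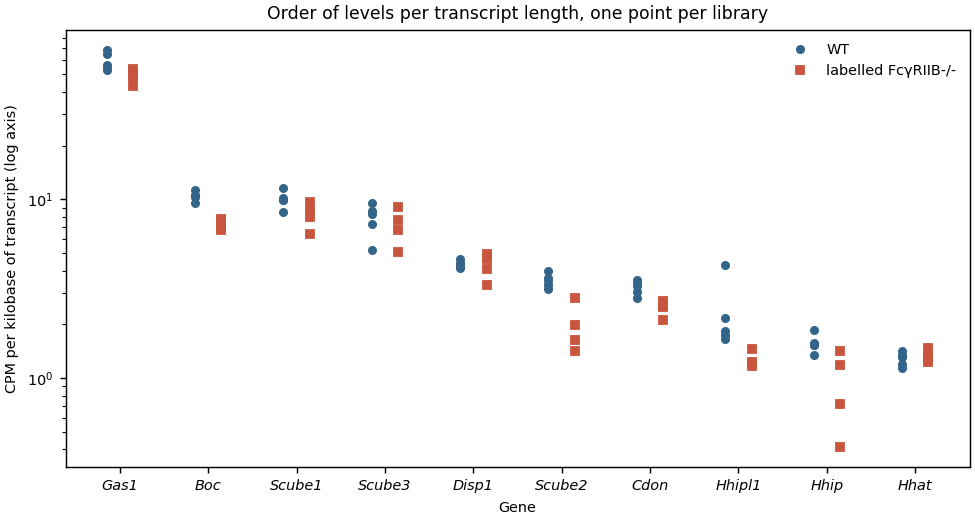
CPM per kilobase of the longest annotated transcript (log axis) for the 10 genes in order of the WT mean, with 1 point per library for WT (circles) and the labelled mice (squares). Gas1 lies far above the rest, Boc, Scube1 and Scube3 form the next tier, and Hhat, Hhip and Hhipl1 are lowest.

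The core genes of the pathway moved in both directions. Of 9 core genes, 2 rose, 1 fell and 6 did not pass, with a median log2 fold change of -0.15, and 33.3% of all tested genes were called in either direction. *Shh*, the ligand of the dental epithelium, had 42.4, 25.5, 39.7, 43.5 and 16.6 CPM in WT and 67.0, 109, 74.9 and 70.7 CPM in the labelled mice. It rose by a log2 fold change of 1.26 with a standard error of 0.26 (adjusted p = 0.00535, edgeR's quasi-likelihood test). *Gli1*, the activator that is also a target, rose by 0.60 (adjusted p = 0.00884). *Sufu*, the cytoplasmic inhibitor of GLI proteins, had 13.2, 14.8, 14.1, 14.5 and 15.3 CPM in WT and 11.3, 8.46, 8.39 and 7.96 CPM in the labelled mice, and fell with a log2 fold change of -0.67 (adjusted p = 0.00231, edgeR's quasi-likelihood test). The summed level of the tooth markers was likewise higher in the labelled mice without overlap, though only 3 of the 8 tooth genes were each without overlap. WT replicate 5 was lowest for both *Shh* and the tooth sum. Among the labelled mice *Shh* was highest in replicate 2 and the tooth sum in replicate 4. The part of the tooth cells in the *Shh* level was not tested.

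The remaining core genes did not pass. *Ptch1*, the main receptor, had a log2 fold change of -0.57 (adjusted p = 0.0638). It had 40.6, 63.7, 34.2 and 25.3 CPM in replicates 1 to 4 of the labelled mice, against 51.4 to 70.5 CPM in WT, so that replicate 2 alone was within the WT range. *Ptch1* passed without replicate 2 of the labelled mice (log2 fold change -0.87, adjusted p = 0.00449), and was at -0.50 without replicate 3 (adjusted p = 0.152) and at -0.40 without replicate 4 (adjusted p = 0.134). *Gli2* had a log2 fold change of 0.32 (adjusted p = 0.0691), and passed without replicate 3 of the labelled mice (adjusted p = 0.0113). *Gli3* had a value of -0.16 (adjusted p = 0.158) and *Smo*, the signal transducer, of -0.15 (adjusted p = 0.0975). The ligands *Dhh* and *Ihh* had log2 fold changes of 0.06 (adjusted p = 0.877) and -0.95 (adjusted p = 0.256), and *Ihh* was scarce, at 0.152 to 1.72 CPM. Among these targets, *Gli1* rose in these libraries, though the paper's qPCR of it went the other way. *Hhip* and *Ptch1* had negative log2 fold changes that did not pass.

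**Figure D4:**
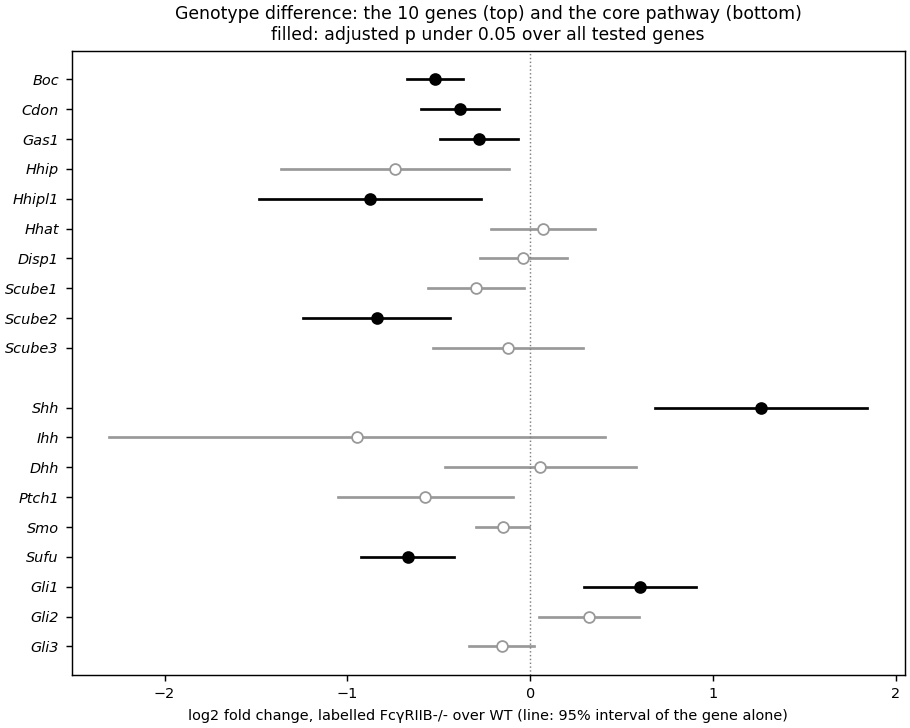
The log2 fold change of the labelled mice over WT (x axis) with its 95% interval for each gene alone, for the 10 genes (top) and 9 core pathway genes (bottom); filled points passed edgeR's test. The filled points of the upper set (Boc, Cdon, Gas1, Hhipl1, Scube2) are all negative, and those of the lower set are positive for Shh and Gli1 and negative for Sufu.

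Relatives of the 10 genes and other proteins that handle the ligand included calls of either sign. Of 15 such genes 14 were tested, and 4 rose, 2 fell and 8 did not pass, with a median log2 fold change of -0.07. Over all tested genes, 14.0% rose, 19.3% fell and 33.3% were called in either direction. The relatives *Hhatl* and *Disp2* rose by 0.90 (adjusted p = 0.0135) and 0.99 (adjusted p = 0.0088). *Disp2* was scarce, at 0.508 to 0.848 CPM in WT and 1.09 to 1.48 CPM in the labelled mice. *Hhatl*, a relative of *Hhat* known from muscle and heart, had 7.34 to 15.2 CPM in WT and 15.6 to 28.98 CPM in the labelled mice. The sum of 10 skeletal muscle markers was likewise higher, at 8058 to 18915 CPM in WT and 19214 to 33325 CPM in the labelled mice, with 6 of the 10 genes higher and the part of muscle in the *Hhatl* value not tested.

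Heparan sulfate proteoglycans and their enzymes, which bind the ligand at the cell surface, were also mixed. The glypican *Gpc6* fell from 39.7 to 47.8 CPM in WT to 23.0 to 28.6 CPM in the labelled mice, with a log2 fold change of -0.72 (adjusted p = 0.000575, edgeR's quasi-likelihood test). *Gpc2* rose by 0.70 (adjusted p = 0.0104). *Gpc3*, a glypican that competes with PTCH1 for the ligand, had a log2 fold change of -0.05 (adjusted p = 0.724). *Ext1*, a polymerase of heparan sulfate, rose by 0.31 (adjusted p = 0.00694). The sulfatase *Sulf2* fell with a log2 fold change of -0.55 (adjusted p = 0.00249), and its relative *Sulf1* had a value of -0.03 (adjusted p = 0.891, edgeR's quasi-likelihood test). *Lrp2*, the endocytic receptor megalin, had at most 0.139 CPM in any mouse and was not tested.

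Of 16 regulators in the cilium and cytoplasm, 3 rose, 2 fell and 11 did not pass, a share of calls near the 33.3% over all tested genes. The risers were *Kif7*, the ciliary kinesin of the pathway, at 0.62 (adjusted p = 0.00348), *Stk36* at 0.53 (adjusted p = 0.0132) and *Spop*, an adaptor of a ubiquitin ligase, at 0.25 (adjusted p = 0.0315). *Gpr161*, a ciliary receptor that restrains the pathway, had a log2 fold change of -0.59 (adjusted p = 0.0457), and *Grk2*, the kinase that phosphorylates SMO, had -0.35 (adjusted p = 0.0176, edgeR's quasi-likelihood test). Calls among the 16 dropped to 3 when genes with low counts were kept in the test, and also without replicate 1 or replicate 3 of the labelled mice.

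**Figure D5:**
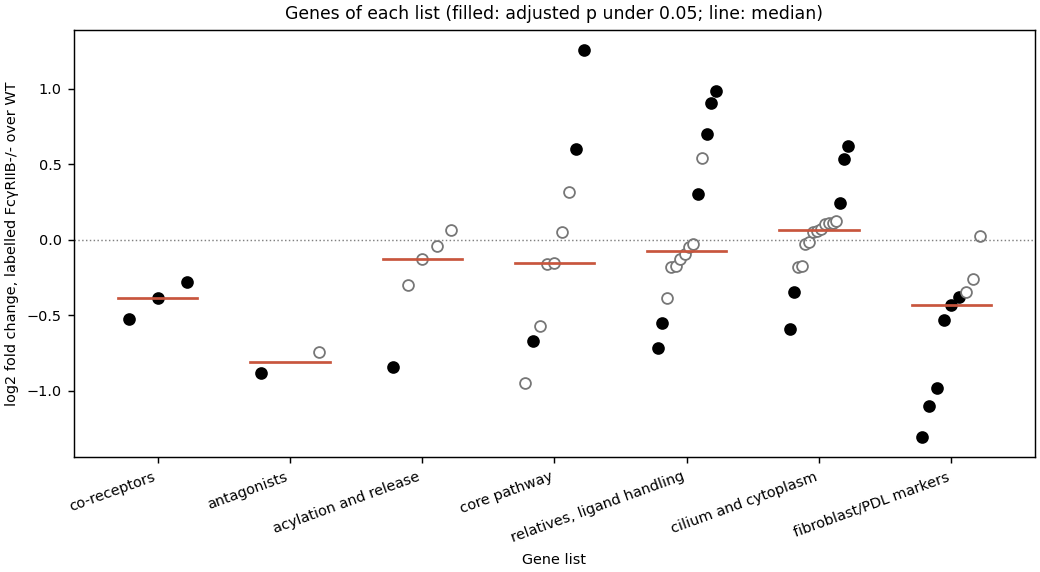
The log2 fold change of the labelled mice over WT (y axis) for each tested gene of the co-receptors, the antagonist Hhip with its relative Hhipl1 (labelled antagonists), the acylation and release genes, the core pathway, relatives and ligand-handling genes, cilium and cytoplasm genes, and fibroblast and periodontal ligament (PDL) markers; filled points have an adjusted p under 0.05 and lines are medians. The 3 co-receptors are all filled and negative, the core, relatives and cilium lists spread on both sides of 0, and 8 of the 9 fibroblast markers are negative.

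For each of the 5 genes that fell, the genes with the most similar profile over the 9 libraries were found among 14115 genes, as the smallest root mean square difference in centred log2 CPM. Those nearest to *Boc* were *Fasn*, *Map3k3* and *Atp8b2*, with differences of 0.032, 0.038 and 0.048. For *Cdon* they were *Peg3*, *Dcp2* and *Hs2st1* at 0.058, 0.067 and 0.067, and for *Gas1* they were *Fbln1*, *Tnfrsf19* and *Mme* at 0.049, 0.056 and 0.067. The match was looser for *Hhipl1*, with *Kctd4*, *Gramd1c* and *Ankrd35* at 0.135, 0.136 and 0.138, and for *Scube2*, with *Fam198a*, *Itih5* and *Tlcd2* at 0.162, 0.169 and 0.169. None of these nearest genes was another of the 10.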

How the data were processed

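Single-end reads from a stranded library kit were trimmed by the authors with Trim Galore, mapped to mm10 with HISAT 02.1.0 and assigned to genes with featureCounts. The deposited values are raw counts per gene. Annotation, strand setting and treatment of multiply mapped reads are not given in the sources used here. The table holds 1 column that matched no labelled sample and was not used. In R 4.3.3, edgeR 4.0.16 was run with filterByExpr (minimum count 10), TMM, the quasi-likelihood test of genotype without covariates and Benjamini-Hochberg adjustment at 0.05. Standard errors were derived from the F statistic of each gene. The log2 CPM used a prior count of 2. DESeq2 1.42.0, other normalizations and filters, a replicate block and leaving out each mouse were alternatives. The test was checked on simulated counts. Libraries were checked for duplicates, and 0 near-identical pairs were found. Each library was taken as 1 mouse, because the paper gives the group sizes in mice. The labels give only a genotype and a replicate number. Transcript lengths came from GENCODE M21 and coordinates and promoter windows from RefSeq (GRCm38.p6). The text names all 10 genes, the core pathway genes, listed genes past the threshold and the 3 nearest profiles of each gene that fell. *Sulf1*, *Gpc3*, *Lrp2*, *Sost*, *Mepe*, *Dmp1*, *Phex* and *Bglap* were added after their values were seen. The genes and lists were chosen with earlier results of these data known. Some genes of the lists are not reported here. A comparison of protein sequences was planned and not run.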

Additional observations from a re-analysis of the deposited data

Results flagged for a closer look

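The level of *Hhipl1* in WT replicate 5 lay far from the other WT mice, at 4.48 log2 CPM against 3.12 to 3.50 in the other 4 (gap over range 0.717, Dixon's critical value 0.71 for 5 samples). It was 1 of 32 sets of values examined (10 genes and 6 ratios in 2 groups), and chance alone gives about 1 in 20.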

How the results depend on the processing

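*Boc*, *Cdon*, *Hhipl1* and *Scube2* passed under all 6 alternatives other than leaving out a mouse. Among these, the replicate block gave WT replicate 5 no part in the genotype difference, since no labelled mouse has that number. *Boc*, *Cdon* and *Scube2* also passed in all 9 fits without a mouse. *Gas1* passed in 3 of the 6 and in 2 of the 9. The genes called among the 10 ranged from 3 to 6 when a mouse was left out, and the calls among the 16 ciliary and cytoplasmic genes from 3 to 5. Calls over all tested genes were also fewer in each of these fits, at 4529 to 5055 against 5433 with all mice. Those 16 gave 3 calls without the filter on low counts and 1 call with the replicate block. Upper quartile normalization was chosen after the data were seen, and it left 4 of the 10 called. Leaving out a mouse turned the sign of uncalled values only: *Disp1* ranged from -0.12 to 0.063, *Scube3* from -0.25 to 0.0066, *Dhh* from -0.17 to 0.18 and the log2 ratio of *Hhip* to *Hhipl1* from -0.40 to 0.22. The cause was not tested.

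Replicate numbers did not pair the mice (correlations of deviations 0.097, 0.028, -0.11 and -0.074). With the replicate block 4004 genes were called in place of 5433, 6 of the 10 genes passed, and 3 of the 9 core genes, as without it. *Scube1* passed under the block (log2 fold change -0.36, adjusted p = 0.0425), in edgeR's quasi-likelihood test, and the log2 fold change of *Hhipl1* was -0.54. Under the block WT replicate 5 does not enter the genotype difference. Leaving that mouse out without a block gave -0.33 for *Scube1* (adjusted p = 0.0539, same test) and -0.52 for *Hhipl1*. With DESeq2 5 of the 9 core genes were called, since *Ptch1* and *Gli2* also passed (adjusted p = 0.0334 and adjusted p = 0.043). With 5 and 4 mice the exact permutation test cannot go below p = 0.00794, and genes at the level of *Hhat* rest on 79 to 125 reads per mouse.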
